A study of Chlorocebus aethiops with 8 samples.

Results

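The data described here are the loading of RNAs on polysomes in COS cells depleted by siRNA of RHA, also called RNA helicase A, the product of DHX9. The measurement is the log2 ratio of polysomal over cytoplasmic intensity, taken within replicate number 1 and within replicate number 2 from the sample titles and then averaged. It rests on 4 of the 8 arrays of the series, namely 2 of polysomal and 2 of cytoplasmic RNA under RHA siRNA. The other 4 arrays hold the same 2 fractions under scrambled control siRNA. They enter the common estimate of the spread and serve as the background for the ratio. COS is a kidney line of the African green monkey that expresses the large T antigen of SV40, and all 4 groups share it. Both siRNAs against RHA were designed on the human coding sequence, at nucleotides 2701 to 2721 and 2784 to 2803. In all groups the siRNA was given at 0.5 nM to cells on 7 plates of 100 mm, with 4 h free of serum and 24 h in 10% serum before cells were split and transfected a further time. Polysomes came from sucrose gradients of the cytoplasmic lysates, and 25 ng of total RNA per array was amplified. The probes were those of Affymetrix rhesus macaque arrays, so that a related species was read. The labels do not say that the replicate numbers are separate cultures, and p-values therefore measure the spread between these arrays, which may be technical.

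An mRNA that is being translated carries several ribosomes and sediments with the polysomes, while an mRNA that is little translated stays with free ribonucleoprotein particles, single ribosomal subunits or monosomes. The ratio of polysomal over cytoplasmic RNA is therefore a measure of how far an mRNA is engaged by ribosomes relative to other mRNAs on the same arrays. RHA is a DExH-box helicase that unwinds RNA and DNA. It is known to bind a structured element in the leader of certain retroviral RNAs and of the JUND mRNA and to promote their translation. A shift shared by all RNAs cannot be seen here, since each array received an equal RNA input and had a similar median intensity.

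The 4 arrays under RHA siRNA had median intensities of 19.8 to 20.7. Polysomal and cytoplasmic arrays of the same number correlated across probe sets with r = 0.976 and r = 0.979, against 0.849 to 0.862 for pairs from different numbers. Between the numbers 13535 of the 26383 probe sets tested (51.3%) differed, and ratios were taken within a number. Of the control siRNA arrays, the cytoplasmic array of replicate 1 stood apart, with r = 0.950 to the median of its number against at least 0.972 for the other 7 arrays. Vimentin (VIM), an intermediate filament protein of mesenchymal and cultured cells, had intensities of 4043 to 6345 under RHA siRNA, and the epithelial adhesion protein EPCAM had 204 to 447. The kidney transcription factor PAX8 had 77.5 to 92.0. Of 16 kidney tubule markers on the array 9 lay above the limit for testing, a mean log2 intensity of 4.32 over all arrays (intensity 19.9), with CDH1, PAX2, UMOD, SLC12A1, SLC12A3, LRP2 and CUBN below it. Summed intensities of these markers were 2321 and 2511 on the polysomal and 1967 and 2416 on the cytoplasmic arrays. In such bulk RNA, fewer cells with a marker and less of it per cell cannot be told apart. Of the fibroblast markers 8 of 10 were above the limit, with sums of 5203 and 6669 on polysomal and 5098 and 6956 on cytoplasmic arrays. Most of each sum was VIM alone. The collagen COL1A1 read 24.3 to 162, and COL1A2 and TWIST1 lay below the limit. Of the leukocyte markers 3 of 9 were above it, with sums of 245 to 363, and PTPRC, which defines leukocytes, lay at 8.89 to 9.61. Of the endothelial markers 5 of 6 and of the hepatocyte markers 1 of 4 were above it.

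DHX9 was read by 1 probe set bright enough to be tested. Under RHA siRNA its intensity was 97.2 in polysomal and 130 in cytoplasmic RNA of replicate 1, and 269 and 254 in replicate 2. These are 27.0% and 56.3% of the control siRNA arrays in polysomes, and 53.3% and 74.2% in cytoplasm, so the targeted mRNA was lower in each of the 4 comparisons with control siRNA. The log2 ratio of the DHX9 mRNA still present was -0.42 in replicate 1 and 0.08 in replicate 2 (mean -0.17, SE 0.31). Under control siRNA it was 0.56 and 0.48. The difference of -0.69 (SE 0.43) did not pass the test, with an adjusted p in limma of 0.967. This probe set holds probes shared between transcripts, and a further 3 probe sets of DHX9 were too dim to be tested. Without the polysomal RHA siRNA array of replicate 1 the ratio of DHX9 was 0.25. Its difference from control siRNA was -0.41 without the polysomal control array of replicate 1 and -0.92 without the cytoplasmic one.

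JUND, the AP-1 transcription factor whose mRNA is a known translation target of RHA, had intensities of 31.2 in polysomal and 28.1 in cytoplasmic RNA of replicate 1. In replicate 2 it had 41.2 and 44.0. Its log2 ratio was thus 0.15 and -0.09 (mean 0.03, SE 0.32), and the polysomal and cytoplasmic arrays overlapped. Under control siRNA the ratio was 0.84 and 0.46, above both values under RHA siRNA, which held for 18.1% of all probe sets tested. The difference was -0.63 (SE 0.45) with an adjusted p of 0.967 in limma. It was -0.22 without the polysomal control array of replicate 1 and -0.78 without the cytoplasmic one. JUND was read by a single probe set, which also holds shared probes. The sign of its ratio under RHA siRNA turned when arrays were centred on their medians (-0.02) and when single arrays were left out (range -0.34 to 0.39).

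No RNA passed the test for a different level in polysomes than in cytoplasm under RHA siRNA. Limma called 0 of 26383 probe sets as higher (0.0%) and 0 as lower (0.0%) at an adjusted p under 0.05, and the smallest adjusted p was 0.916. At an unadjusted p under 0.05 there were 863 higher (3.27%) and 314 lower (1.19%), or 593 and 416 after quantile normalization and 556 and 442 after centring arrays on their medians. Without the replicate number as a block in the model 0 were called and 70 had an unadjusted p under 0.05. With the 4 RHA siRNA arrays alone the numbers were 0 and 2462. The median standard error of a ratio was 0.27 on the log2 scale.

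Ratios under RHA siRNA were centred near 0 in both numbers, at a median of -0.03 in replicate 1 and 0.11 in replicate 2. From the lowest to the highest 5% they spanned -0.75 to 0.71 and -0.59 to 0.79. As a description across probe sets, the ratios of the numbers correlated with r = 0.184. Probe sets are no replicates, and the titles do not say whether the arrays of a number share a preparation. Both ratios lay above 0 for 8444 probe sets (32.0%) and below 0 for 6364 (24.1%). Both polysomal arrays exceeded both cytoplasmic arrays for 2662 (10.1%), and 1958 (7.42%) had the reverse.

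The balance of higher and lower ratios differed with brightness. Among the 5277 probe sets with the highest mean intensity 2425 had both ratios above 0 and 1027 below. Among the 5277 dimmest these numbers were 1105 and 1619. Where a gene had more than 1 tested probe set, the brightest and the next one had the same sign of the mean ratio in 2392 of 3831 genes (62.4%), with r = 0.365 across genes.

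The ends of transcripts were not read alike in polysomal and cytoplasmic RNA. On the arrays, control probe sets lie near the 3′ and the 5′ end of ACTB, GAPDH and EEF1A1 mRNA, and the log2 difference between them grows as RNA is degraded or less completely copied. Averaged over the 3 transcripts, that difference was 0.74 larger in polysomal than in cytoplasmic RNA of replicate 1 under RHA siRNA, and 0.25 larger in replicate 2. Under control siRNA it was -1.55 in replicate 1 and 0.32 in replicate 2. EEF1A1 went against the average in replicate 2 under RHA siRNA, with -0.23 in polysomal and 0.05 in cytoplasmic RNA. It also did so in replicate 2 under control siRNA, with 0.05 and 0.10. The 5′ probe set of ACTB read 181 in polysomal and 375 in cytoplasmic RNA of replicate 1 under RHA siRNA, and 79.3 and 125 in replicate 2. The differences between fractions thus did not keep one direction over replicate numbers, siRNAs and transcripts, and their part in the ratios was not tested.

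**Figure D1:**
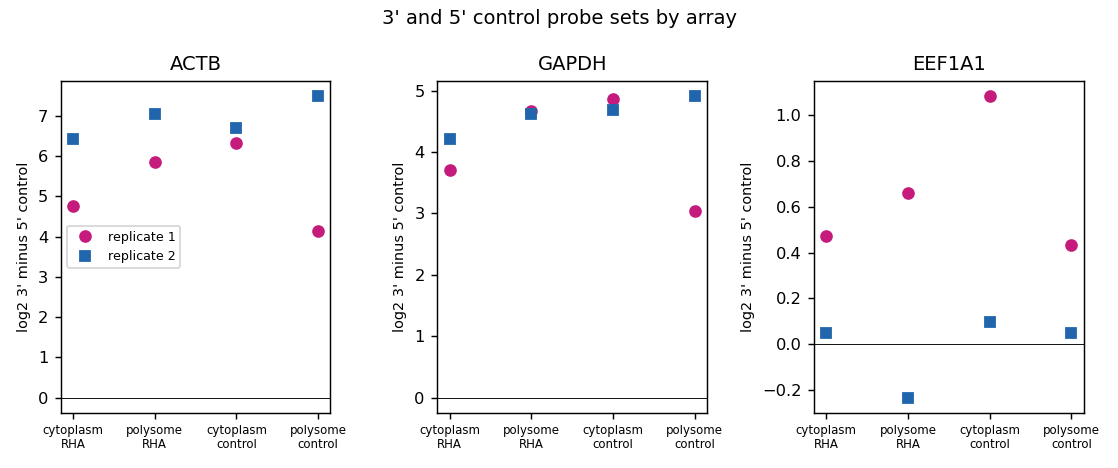
The log2 intensity of the 3′ control probe set minus that of the 5′ one is shown for ACTB, GAPDH and EEF1A1 on each of the 8 arrays, with circles for replicate 1 and squares for replicate 2. For ACTB and GAPDH the polysomal array lay above the cytoplasmic array in both numbers under RHA siRNA, and for EEF1A1 in replicate 1 only. Under control siRNA in replicate 1 the polysomal array lay below for all 3 transcripts.

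A small set of probe sets was at least 2-fold higher in polysomes in both numbers. There were 23 such probe sets (0.0872%) and 4 at least 2-fold lower in both (0.0152%), while 12 (0.0455%) were past 2-fold in opposite directions. Under control siRNA the counts were 4 higher (0.0152%) and 2 lower (0.00758%). Other scalings moved the balance under RHA siRNA, to 12 higher and 8 lower after quantile normalization and to 14 and 11 after median centring. In single numbers 332 were at least 2-fold higher and 509 lower in replicate 1, against 515 and 174 in replicate 2. The 23 were picked for high ratios under RHA siRNA, so a higher ratio than under control siRNA (20 of the 23 in both numbers, against 18.3% of all probe sets) is a description only. Their median control ratio was 0.15. Of the 4 lower ones 1 lay below both control ratios (18.1% of all), and their median control ratio was -1.02. Of the 23, 14 carried 1 gene symbol and 9 had none in the annotation. The 14 were ASPM, ZNF267, ZFX, LXN, TNFAIP8, ZNF83, SCLT1, WNK1, CDKN2AIP, TET2, EXOC8, SCAND3, ZNF568 and FAM13A, a set that was listed after its values were seen. Of the 4 lower ones only BCOR, a transcriptional corepressor, carried a symbol, and 0 of its 2 other probe sets shared the sign.

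**Figure D2:**
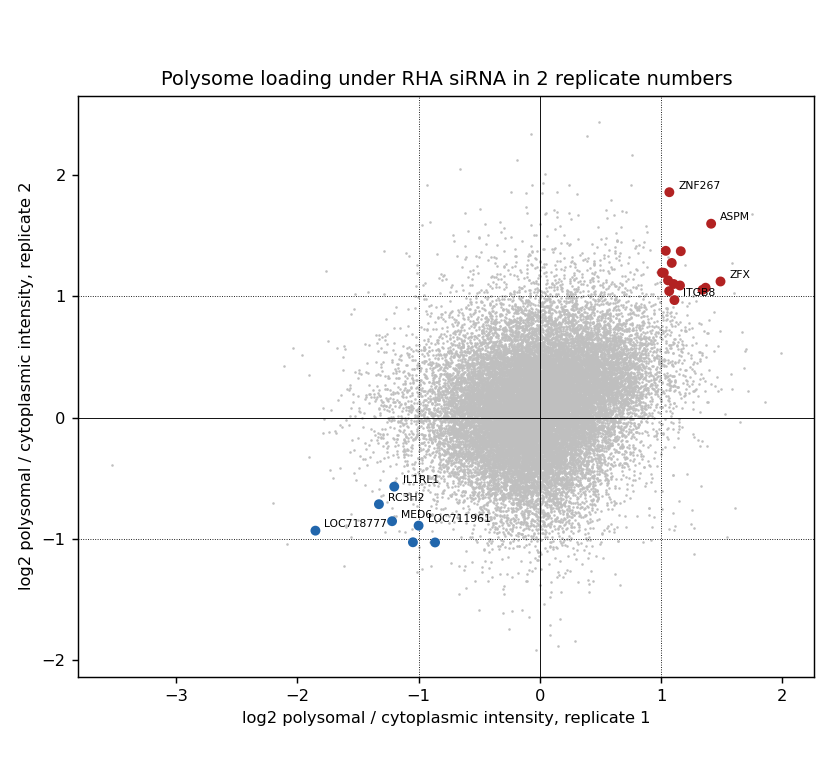
Each grey point is 1 of 26383 probe sets, with its log2 polysomal over cytoplasmic intensity under RHA siRNA in replicate 1 on the x axis and in replicate 2 on the y axis. Dotted lines mark 2-fold. Red and blue points are the named genes with higher and lower ratios and the 2-fold genes with a symbol. ZNF267, ASPM and ZFX lie past 2-fold in both numbers, and r across all points is 0.184.

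Among genes with both group means under RHA siRNA above the limit, those with the smallest p on the higher side were EXOC8, ZFX, SCAND3, TET2, ITGB8 and ZNF568, each with an adjusted p of 0.916 in limma. ZFX, an X-linked zinc-finger transcription factor, had intensities of 287 in polysomal and 102 in cytoplasmic RNA of replicate 1, and 157 and 72.0 in replicate 2. Both polysomal arrays were thus above both cytoplasmic arrays. The log2 ratio was 1.49 and 1.12 (mean 1.31 ± 0.26, SD, n = 2), or 2.47-fold, and 3 of 3 other tested probe sets of ZFX had the same sign, at 0.61, 0.42 and 0.75. A near-identical copy on the Y chromosome, ZFY, exists, and whether these probes also read it is not given in the sources used here. Under control siRNA the ratio of ZFX was -0.38 and 0.07.

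EXOC8, a subunit of the exocyst that tethers secretory vesicles, had 161 in polysomal and 74.7 in cytoplasmic RNA of replicate 1, and 41.3 and 19.3 in replicate 2. Its level differed more between the numbers than between the fractions, but the log2 ratio was 1.10 in both (2.15-fold). Its cytoplasmic array of replicate 2 lay just under the intensity of 19.9 that marks the limit for testing. Under control siRNA it was 0.21 and 0.25. TET2, an enzyme that oxidises 5-methylcytosine in DNA, had 274 and 135 in replicate 1, and 169 and 73.7 in replicate 2, polysomal RNA first. Its polysomal arrays did not overlap its cytoplasmic arrays, and the log2 ratio was 1.02 and 1.19, against 0.25 and -0.19 under control siRNA.

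ITGB8, the beta subunit of an integrin that activates latent TGF-beta, had intensities of 106 in polysomal and 49.1 in cytoplasmic RNA of replicate 1, and 90.3 and 46.1 in replicate 2. The log2 ratio was 1.11 and 0.97, with no overlap between the fractions. Under control siRNA it had 160 and 132 in replicate 1, and 118 and 116 in replicate 2, with ratios of 0.27 and 0.03. SCAND3, a SCAN domain protein, had 201 and 99.7 in replicate 1, and 88.0 and 38.5 in replicate 2, with log2 ratios of 1.01 and 1.20. ZNF568, a KRAB zinc-finger repressor, had 30.5 and 14.7 in replicate 1, and 64.6 and 29.5 in replicate 2, with ratios of 1.06 and 1.13. Its cytoplasmic array of replicate 1 lay below the limit for testing, an intensity of 19.9.

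On the lower side the 6 genes with the smallest p were MED6, LOC711961, LOC718777, NDUFS8, RC3H2 and IL1RL1, also with an adjusted p of 0.916 each in limma. NDUFS8, an iron-sulfur subunit of respiratory complex I, had intensities of 392 in polysomal and 714 in cytoplasmic RNA of replicate 1, and 373 and 762 in replicate 2. Its fractions did not overlap, and the log2 ratio was -0.86 and -1.03 (mean -0.95 ± 0.12, SD, n = 2). A further probe set of NDUFS8 had a ratio of -0.50, and the one described holds probes shared between transcripts. Under control siRNA NDUFS8 was higher in polysomes in both numbers, at 1.07 and 0.61.

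MED6, a subunit of the Mediator complex that links transcription factors to RNA polymerase II, had 15.6 in polysomal and 36.3 in cytoplasmic RNA of replicate 1, and 93.8 and 170 in replicate 2. The polysomal array of replicate 1 was below the limit for testing. The log2 ratio was -1.22 and -0.85, beside -0.97 and -1.22 under control siRNA. RC3H2, an RNA-binding protein of the Roquin family that promotes mRNA decay, had 40.3 and 101 in replicate 1, and 91.3 and 150 in replicate 2. Its ratio was -1.33 and -0.71, with no overlap between the fractions, and -0.75 and -0.19 under control siRNA.

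IL1RL1, the receptor of interleukin 33, had 72.2 in polysomal and 166 in cytoplasmic RNA of replicate 1, and 287 and 426 in replicate 2, for log2 ratios of -1.20 and -0.57. Of its 3 other probe sets 2 shared the sign. LOC718777 was bright on each array, with 1507 and 5435 in replicate 1, and 3415 and 6520 in replicate 2, and had ratios of -1.85 and -0.93 under RHA siRNA and -0.16 and -1.01 under control siRNA. LOC711961 had a mean ratio of -0.95 under RHA siRNA and of -0.82 under control siRNA. For both LOC genes the annotation gave no further name.

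**Figure D3:**
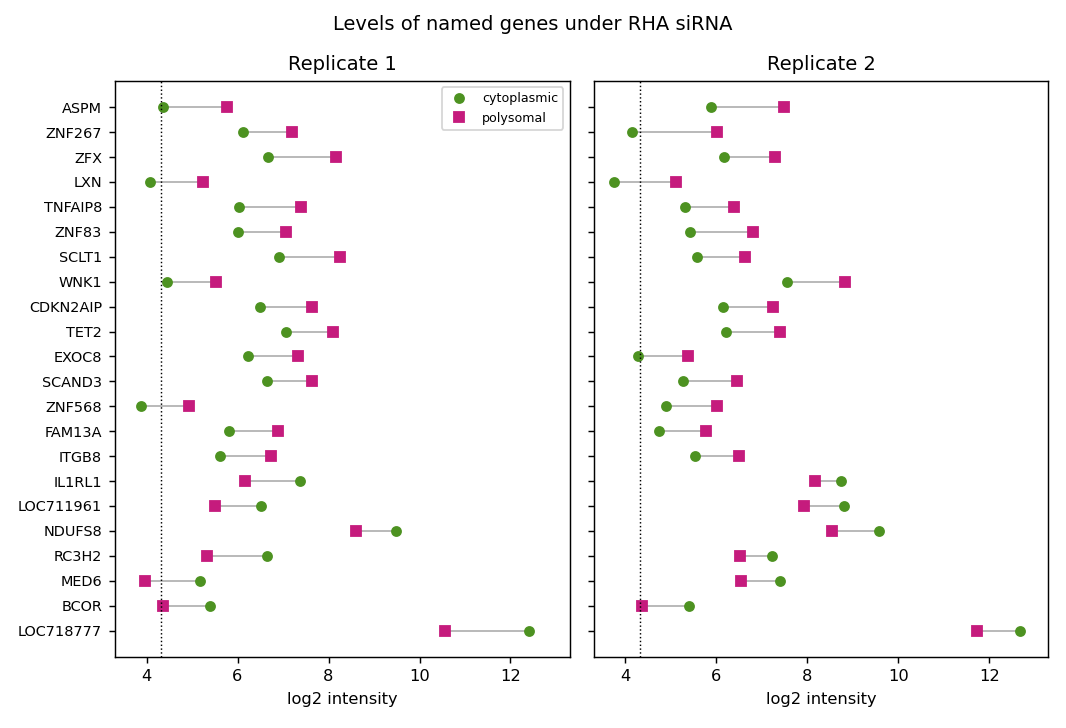
Log2 intensities in cytoplasmic (circles) and polysomal (squares) RNA under RHA siRNA are shown for the genes with the smallest p and those at least 2-fold in both numbers, in replicate 1 on the left and in replicate 2 on the right. The dotted line is the limit for testing at log2 4.32. The gap between fractions has the same direction in both panels for every gene shown, which the choice of genes by their ratios fixes or favours. Levels of genes such as WNK1 and MED6 differ between the panels.

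Other genes at least 2-fold higher in both numbers varied in how they behaved under control siRNA. ASPM, a spindle pole protein, had intensities of 54.7 in polysomal and 20.6 in cytoplasmic RNA of replicate 1, and 178 and 58.9 in replicate 2. Its log2 ratio was 1.41 and 1.60 with a standard error of 0.61, and 0.96 and -0.39 under control siRNA. The control numbers thus went in opposite directions. ZNF267 had ratios of 1.07 and 1.86, with 2 of 2 other probe sets of the same sign, but 1.34 and -0.56 under control siRNA. TNFAIP8, an inhibitor of apoptosis, had 1.37 and 1.07, with 3 of 3 other probe sets of the same sign. WNK1, a kinase that regulates ion transport, had 1.09 and 1.28 although its cytoplasmic intensity was 21.8 in replicate 1 and 188 in replicate 2. CDKN2AIP, which binds the tumour suppressor ARF, had 1.16 and 1.09, but control siRNA gave 1.27 in replicate 1. FAM13A had 1.07 and 1.04, with 1.30 in replicate 1 under control siRNA. LXN, a carboxypeptidase inhibitor, had ratios of 1.16 and 1.37 and a standard error of 0.27, but cytoplasmic intensities of 16.9 and 13.5, below the limit for testing, which kept it out of the genes of smallest p.

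Gene lists are described by their counts and medians, with no test of a list, beside the values for all 10106 genes tested. Of those genes, 3269 (32.3%) had both ratios above 0 and 2537 (25.1%) both below, with a median ratio of 0.02. These turned to 2872 above and 3079 below after quantile normalization, and to 2652 and 3212 after median centring. At an unadjusted p under 0.05 in limma there were 315 higher genes (3.12%) and 112 lower (1.11%). In each list below 0 members passed the adjusted test in limma.

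Zinc-finger genes, taken as all genes with a ZNF symbol, had the highest median ratio of the lists with at least 12 measured genes. They encode mainly DNA-binding repressors and activators of transcription. Of 211 measured genes 108 (51.2%) had both ratios above 0 and 30 (14.2%) both below, and these were 101 and 33 after quantile normalization and 96 and 36 after median centring. The median was 0.10 in replicate 1 and 0.33 in replicate 2, against 0.10 and 0.09 under control siRNA. At an unadjusted p under 0.05 in limma 13 were higher and 0 lower, beside 3.12% and 1.11% of all genes. In 58 genes both RHA siRNA ratios lay above both control ratios and in 26 below, against 1890 (18.7%) and 2228 (22.0%) of all genes. The mean log2 intensity over all arrays lay only just above the limit for testing in 28 of the 211, and in 1308 of all 10106 genes.

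Among its members, ZNF684 had 231 in polysomal and 138 in cytoplasmic RNA of replicate 1, and 117 and 51.2 in replicate 2 (ratios 0.74 and 1.20). ZNF83 had 133 and 64.9, and 111 and 42.9 (1.04 and 1.38), without overlap between the fractions. ZNF518A had ratios of 1.08 and 0.46, with 3 of 3 other probe sets sharing the sign, and ZNF555 had 0.57 and 1.19. These 4 genes had control siRNA ratios of -0.29 to 0.44. Other members went the opposite way, down to a mean ratio of -0.60. Without the cytoplasmic RHA siRNA array of replicate 2 the list's median was 0.01.

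Cytosolic ribosomal protein genes lay on the other side. Of 36 measured cytosolic ribosomal protein genes, 7 (19.4%) had both ratios above 0 and 20 (55.6%) both below, or 2 and 22 after median centring. The median was -0.15 (-0.19 in replicate 1 and -0.05 in replicate 2), with -0.01 and -0.05 under control siRNA. Ribosomal protein mRNAs carry a terminal oligopyrimidine tract at their start and are loaded on ribosomes according to growth signals. RPL12 had intensities of 5297 in polysomal and 9325 in cytoplasmic RNA of replicate 1, and 2915 and 5302 in replicate 2. Its log2 ratio was -0.82 and -0.86. RPL10A was at -0.89 and -0.35 and RPL8 at -0.97 and -0.35, while RPS10 was at 0.58 and 0.50. At an unadjusted p under 0.05 in limma 1 ribosomal protein gene was higher and 3 lower, beside 3.12% and 1.11% of all genes. Ribosomal protein genes have many processed pseudogenes, and whether their probes are specific is not given in the sources used here.

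Other mRNAs of the terminal oligopyrimidine class had a median of -0.07, with 2 of 12 above 0 and 6 below 0 in both numbers (3 and 5 after quantile normalization). RACK1, a scaffold protein on the small ribosomal subunit, had 5080 in polysomal and 9428 in cytoplasmic RNA of replicate 1, and 5505 and 7075 in replicate 2, with ratios of -0.89 and -0.36. The initiation factor subunits EIF3H, EIF3F and EIF3L also had negative ratios in both numbers, at -0.96 and -0.21, at -0.96 and -0.04, and at -1.11 and -0.49. Their polysomal arrays lay below their cytoplasmic arrays without overlap. In contrast, EIF3A, the largest subunit of that factor, had 0.68 and 0.38. Of 25 translation initiation factors 11 were above 0 and 6 below 0 in both numbers (7 and 7 after median centring), and their median went from -0.20 in replicate 1 to 0.19 in replicate 2.

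Cytoskeleton and motor protein genes had the lowest median of the lists with at least 12 measured genes. Of 34 measured, 3 (8.82%) had both ratios above 0 and 18 (52.9%) both below, and these were 4 and 20 after quantile normalization. The median was -0.33 in replicate 1 and -0.10 in replicate 2, while under control siRNA it was 0.24 and 0.12. In 20 of the 34 both RHA siRNA ratios lay below both control ratios, and in 1 above, against 22.0% and 18.7% of all genes. TUBB, a beta-tubulin, had 663 in polysomal and 1655 in cytoplasmic RNA of replicate 1, and 1068 and 1526 in replicate 2. The fractions did not overlap, and its ratio was -1.32 and -0.51, against 2.16 and 0.09 under control siRNA. SPTBN1, a spectrin of the membrane skeleton, was at -0.85 and -0.66, with control ratios that were also negative (-0.22 and -0.55). FLNA, the actin crosslinker filamin A, was at -0.70 and -0.40, and TPM2, a tropomyosin, at -1.12 and -0.17, with 2 of its 4 other probe sets sharing the sign.

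Glycolytic genes had a median of -0.23 in replicate 1 and -0.02 in replicate 2 under RHA siRNA, and of 0.53 and 0.09 under control siRNA. Of 16 measured, 3 had both ratios above 0 and 8 both below (5 and 10 after quantile normalization or median centring). GAPDH, which oxidises glyceraldehyde 3-phosphate, had 1021 in polysomal and 2182 in cytoplasmic RNA of replicate 1, and 823 and 1073 in replicate 2. The ratio was -1.10 and -0.38, and 1.11 and 0.46 under control siRNA. Aldolase A (ALDOA) had -0.82 and -0.41, against 0.62 and 0.33, and pyruvate kinase (PKM) had -1.01 and -0.33, against 1.55 and 0.37. All of these enzymes had polysomal arrays below cytoplasmic arrays without overlap under RHA siRNA. The control transcripts with 3′ and 5′ probe sets include GAPDH itself. Their mean 3′ to 5′ difference, polysomal minus cytoplasmic, was 0.74 and 0.25 under RHA siRNA. Under control siRNA it was -1.55 and 0.32, and its part in these ratios was not tested.

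Growth regulators known for long or structured leaders, the class in which helicase dependence of translation is usually discussed, were mostly on the lower side. Of 25 measured, 2 (8.0%) had both ratios above 0 and 13 (52.0%) both below, with a median of -0.18 in replicate 1 and -0.08 in replicate 2. Under control siRNA the medians were 0.34 and 0.09. In 0 of 25 did both RHA siRNA ratios exceed both control ratios (18.7% of all genes), and in 11 both lay below (22.0% of all genes). CDK4, the G1 cyclin-dependent kinase, had 885 in polysomal and 1662 in cytoplasmic RNA of replicate 1, and 1442 and 1471 in replicate 2, for ratios of -0.91 and -0.03. IGF2, an insulin-like growth factor, had -0.55 and -0.47. The 2 genes above 0 in both numbers were IGF1R, the receptor of insulin-like growth factors (0.72 and 1.06, with 1.28 and 0.56 under control siRNA), and the kinase ROCK1 (0.41 and 0.43), for which 0 of 2 other probe sets shared the sign.

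Genes of G2/M and mitosis lay above 0 in both numbers more often than all genes, of which 32.3% were above and 25.1% below. Of 32 measured G2/M and mitosis genes 15 (46.9%) had both ratios above 0 and 3 (9.38%) both below, or 12 and 6 after median centring and 13 and 6 after quantile normalization. The median was 0.02 in replicate 1 and 0.28 in replicate 2, and 0.16 and -0.00 under control siRNA. Without the cytoplasmic RHA siRNA array of replicate 2 it was -0.06. NUF2, a kinetochore protein, had intensities of 931 in polysomal and 516 in cytoplasmic RNA of replicate 1, and 343 and 174 in replicate 2, with ratios of 0.85 and 0.98. The kinesin KIF18A had 0.69 and 1.01 and the condensin subunit NCAPG 0.57 and 0.70, both without overlap between fractions. G1/S and replication genes had 12 of 38 (31.6%) above and 6 (15.8%) below 0, near the share of all genes on the higher side. These counts became 10 and 11 after quantile normalization and 14 and 12 after median centring. The median of the G1/S genes was -0.11 in replicate 1 and 0.23 in replicate 2. Among them the cyclin CCNE2 had 0.75 and 0.83 and the DNA polymerase subunit POLD3 0.87 and 0.66.

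DExD/H-box helicases, the family of RHA, had 14 of 37 members above 0 in both numbers and 5 below (13 and 9 after quantile normalization). The median was -0.07 in replicate 1 and 0.24 in replicate 2, and it was 0.48 and 0.22 under control siRNA. YTHDC2, a helicase that binds methylated RNA, had 328 in polysomal and 157 in cytoplasmic RNA of replicate 1, and 179 and 109 in replicate 2. Its ratio was 1.06 and 0.72, without overlap, and 2 of 2 other probe sets shared the sign. DDX46, a splicing helicase, had 0.52 and 0.56.

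Lists of mitochondrial and secretory function had more members below 0 than above, or no clear side. Of 52 nuclear genes of oxidative phosphorylation 9 were above 0 and 19 below in both numbers, or 7 and 31 after median centring. Their median was -0.27 in replicate 1 and 0.02 in replicate 2. In 22 both RHA siRNA ratios lay below both control ratios and in 3 above, against 22.0% and 18.7% of all genes. Besides NDUFS8, the complex I subunits NDUFA10 (-0.51 and -0.37) and NDUFV3 (-0.56 and -0.25) had polysomal arrays below the cytoplasmic ones. ATP5F1B, the catalytic subunit of ATP synthase, had -1.11 and -0.27 against 2.01 and 0.57 under control siRNA, and 0 of 1 other probe sets shared its sign. Mitochondrial ribosomal proteins had 21 of 62 above 0 and 19 below, which turned to 15 and 27 after quantile normalization and 20 and 27 after median centring.

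ER chaperones and folding enzymes had 7 of 31 above and 13 below (4 and 17 after median centring), with a median of -0.11. ERO1A, an oxidase that forms disulfide bonds, had 209 in polysomal and 135 in cytoplasmic RNA of replicate 1, and 416 and 225 in replicate 2 (0.63 and 0.89), and 2 of 2 other probe sets shared its sign. SSR3, a subunit of the translocon-associated protein complex, had -0.78 and -0.74. Extracellular matrix and secreted proteins had 7 of 37 above and 13 below. Their medians were -0.12 and -0.08, against 0.23 and 0.06 under control siRNA, yet laminin subunit LAMB1 had 0.53 and 0.62 and the matricellular protein CCN2 0.52 and 0.58. Integrins, receptors and solute carriers had 15 of 41 above and 9 below, turning to 12 and 15 after quantile normalization and 13 and 13 after median centring. At an unadjusted p under 0.05 in limma 5 of the 41 were higher and 0 lower, beside 3.12% and 1.11% of all genes. The 5 included ITGB8, ITGA2 (0.49 and 1.21) and the cystine transporter SLC7A11 (0.46 and 0.75). For ITGA2 0 of 1 other probe sets shared the sign.

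In the remaining lists the counts above and below 0 were small or close to each other. Proteasome subunits had 9 of 27 above and 5 below (8 and 9 after quantile normalization), cytosolic chaperones 8 of 24 and 4 (6 and 6 after median centring), and splicing factors 13 of 49 each way (7 and 16 after median centring). Replication-dependent histones had 5 of 18 above and 4 below (6 and 3 after quantile normalization). Stress mRNAs with upstream reading frames had 4 of 19 each way (3 and 8 after median centring). In that list IBTK, known for upstream frames in its leader, had 226 in polysomal and 113 in cytoplasmic RNA of replicate 1, and 272 and 164 in replicate 2 (0.99 and 0.73). Immediate-early and short-lived regulators had 11 of 31 above and 9 below, turning to 6 and 8 after quantile normalization. Selenoproteins had 4 of 13 above and 3 below, or 3 and 4 after quantile normalization. Iron-responsive element mRNAs had 3 of 5 above and 0 below, or 2 and 1 after quantile normalization. Transcripts of the mitochondrial genome (0 measured) and noncoding RNAs (1 measured) gave too few genes.

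**Figure D4:**
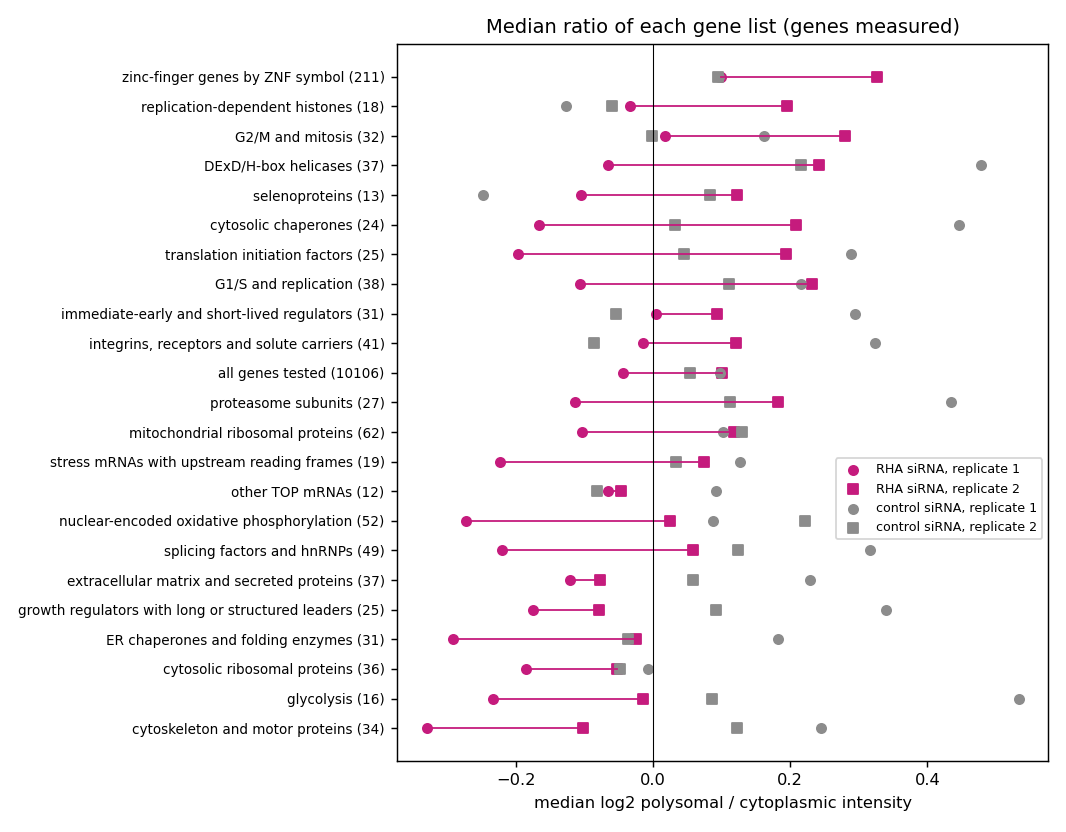
Medians of the log2 polysomal over cytoplasmic ratio are shown for each list with at least 12 measured genes (number in brackets), in colour for RHA siRNA and in grey for control siRNA, with circles for replicate 1 and squares for replicate 2. Zinc-finger genes have the highest and cytoskeleton genes the lowest median ratio under RHA siRNA. Under quantile normalization or median centring the median turned sign for mitochondrial ribosomal proteins, proteasome subunits, integrins, immediate-early regulators and G1/S genes.

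Whether a ratio under RHA siRNA differed from the ratio under control siRNA was tested as the difference between them. Limma called 0 of 26383 probe sets as higher (0.0%) and 0 as lower (0.0%), with a smallest adjusted p of 0.967. At an unadjusted p under 0.05 there were 315 higher and 733 lower, and without the replicate block 46 in all. Both RHA siRNA ratios exceeded both control ratios in 4816 probe sets (18.3%) and lay below both in 4784 (18.1%). In 1452 (5.5%) both RHA siRNA ratios were above 0 and both control ratios below, and 1896 (7.19%) had the reverse. The control ratios were wide in replicate 1, with 2597 probe sets at least 2-fold higher in polysomes and 148 lower, against 53 and 135 in replicate 2. That number holds the cytoplasmic control array that stood apart and the lower 3′ to 5′ difference, whose part in the differences was not tested. Without the cytoplasmic control array of replicate 1 limma called 0 with 1407 at an unadjusted p under 0.05. Without that of replicate 2 it called 0 with 3048 and a smallest adjusted p of 0.0577.

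The genes with the smallest p on the higher side of this difference were ZFX, LOC700398, LCORL, ZNF548 and SOCS4, each with an adjusted p of 0.967 in limma. ZFX had a difference of 1.46 (SE 0.38). It was 1.16 without the polysomal control array of replicate 1 and 1.46 without the cytoplasmic one. LCORL, a nuclear corepressor-like protein, had intensities of 59.4 in polysomal and 30.6 in cytoplasmic RNA of replicate 1 under RHA siRNA, and 32.8 and 19.4 in replicate 2. Under control siRNA it had 43.2 and 45.6, and 18.4 and 34.9, so its ratio was 0.96 and 0.76 against -0.08 and -0.92. In replicate 2 the lower RHA siRNA value and the lower control value lay under the limit for testing. SOCS4, a suppressor of cytokine signalling, had ratios of 0.47 and 0.65 against -0.46 and -0.70. ZNF548 had 0.52 and 0.40 against -0.59 and -0.81, with 3 of its 4 arrays of replicate 1 below that limit.

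On the lower side they were NDUFS8, UBA1, PTTG1, CLIP3 and LOC707275, also with an adjusted p of 0.967 each in limma. NDUFS8 had a difference of -1.78 (SE 0.34), and -1.70 without the cytoplasmic control array of replicate 1. UBA1, the enzyme that activates ubiquitin, had 124 in polysomal and 245 in cytoplasmic RNA of replicate 1 under RHA siRNA, and 163 and 227 in replicate 2. Under control siRNA it had 352 and 147, and 271 and 159, polysomal RNA first. Its ratio was thus -0.98 and -0.48 against 1.26 and 0.77. PTTG1, the securin that holds back separase, had -1.10 and -0.39 against 1.38 and 0.59, but 0 of 2 other probe sets shared the sign of its RHA siRNA ratio. CLIP3, a linker protein of the cytoskeleton, had -0.52 and -0.54 against 1.07 and 0.70. LOC707275 had -1.02 and -0.73 against 2.13 and 0.52, and 0 of 1 other probe sets shared the sign.

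**Figure D5:**
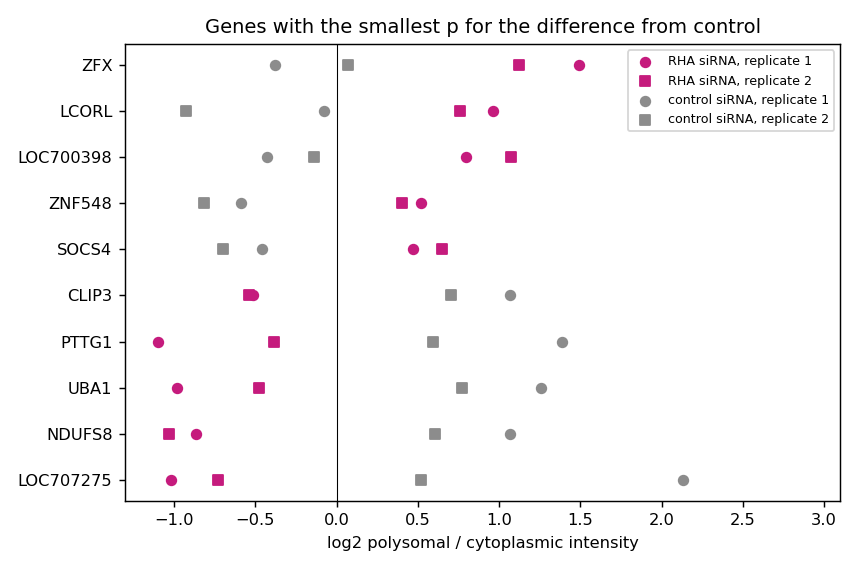
The log2 polysomal over cytoplasmic ratio of the 10 genes with the smallest p for the difference is shown for RHA siRNA in colour and control siRNA in grey, with circles for replicate 1 and squares for replicate 2. The genes were chosen so that both coloured points lie on one side of both grey points, and LOC707275 has the widest gap between its control points.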

How the data were processed

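RNA of 8 arrays (4 groups of 2) was analysed. The values are probe set intensities on a linear scale as deposited. Per the submitters' processing notes, GCOS and RMA were used, with no version or role, and the normalization is not given in the sources used here. Similar array medians led to their use without further scaling. Log2 intensities were fitted in limma 3.58.1 (R 4.3.3; lmFit, eBayes, two-sided) with 4 groups and the replicate number as a block, since ratios were taken within numbers. Polysomal and cytoplasmic RHA siRNA arrays of a number deviated together (r = 0.868), but the titles do not state a pairing. Benjamini-Hochberg adjusted p-values under 0.05 were called. Of 52865 probe sets, 99 were controls, 24969 carried 1 gene symbol, 361 several and 27535 were not listed. The upper 50% by mean log2 intensity over all arrays (26383, limit 4.32) were tested, 16072 of them with 1 symbol. Lists used each gene's brightest probe set. Arrays have no read depth, and their number limits the precision. The fit was checked on simulated data.

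Named in each direction are the 12 largest ratios that passed the test or, with fewer than 6 of these, the 6 genes of smallest p. For the difference these are 5 genes of smallest p whose RHA siRNA ratios lie both beyond the control ratios, and in a list up to 4. DHX9 and JUND are always named. For all but these last 2, both RHA siRNA group means had to reach the limit. Others are said to be chosen after their values were seen. The comparison, the gene lists and the rule were chosen with earlier results of these data known. Alternatives were no block, RHA siRNA arrays alone, other filters, a pseudocount of 16, other scalings, an intensity trend, 1 probe set per gene and each array left out.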

Additional observations from a re-analysis of the deposited data

Results flagged for a closer look

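In 9 of the genes named for the difference from control siRNA, both ratios under RHA siRNA had one sign and both under control siRNA the other. Of all probe sets, 1452 (5.5%) had this pattern in the higher and 1896 (7.19%) in the lower direction. The named genes were chosen for a small p and for RHA siRNA ratios beyond both control ratios. That choice favours the pattern, so its share among them is a description only. The difference was 1.22 for LOC700398, 1.36 for LCORL, 1.16 for ZNF548 and 1.14 for SOCS4. It was -1.78 for NDUFS8, -1.74 for UBA1, -1.73 for PTTG1, -1.41 for CLIP3 and -2.20 for LOC707275. Each was tested in limma and had an adjusted p of 0.967. Without the polysomal control array of replicate 1 they ranged from 1.07 (LOC700398) to 1.66 (LCORL) and from -1.56 (NDUFS8) to -1.18 (CLIP3).

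The medians of 4 gene lists lay below 0 in both numbers under RHA siRNA and above 0 in both under control siRNA. For extracellular matrix, growth regulators, cytoskeleton and glycolysis the control medians were 0.23, 0.34, 0.24 and 0.53 in replicate 1, against 0.06, 0.09, 0.12 and 0.09 in replicate 2. Replicate 1 holds the cytoplasmic control array that stood apart (r = 0.950) and the 3′ to 5′ difference of -1.55, whose part was not tested. The median difference was -0.16 for extracellular matrix and secreted proteins, -0.17 for growth regulators with long or structured leaders, -0.37 for cytoskeleton and motor proteins and -0.44 for glycolysis, beside -0.04 for all genes tested. The difference of a list was not tested. For extracellular matrix genes the median ratio under RHA siRNA was 0.10 without the polysomal RHA siRNA array of replicate 1 and 0.08 without the cytoplasmic one of replicate 2.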

How the results depend on the processing

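Every alternative left 0 probe sets called in both directions, for the ratio under RHA siRNA and for its difference from control siRNA, the fit without the replicate block included. The number at least 2-fold in both replicate numbers (23 higher, 4 lower) depended on the setting: 10 and 0 in the upper 25% by brightness, 1 and 0 with a pseudocount of 16, 12 and 8 after quantile normalization, 14 and 11 after median centring, and 8 and 0 with 1 probe set per gene. The ratio of JUND was -0.024 after median centring. With arrays or a replicate number left out, the ratio of DHX9 ranged from -0.59 to 0.25 and that of JUND from -0.34 to 0.39, and that of PSMC4 (mean -0.39) from -0.89 to 0.12. The median kept its side of 0 in each of 18 settings for zinc-finger genes (0.01 to 0.39), cytoskeleton (-0.33 to -0.10), ribosomal proteins (-0.24 to -0.05), other oligopyrimidine mRNAs (-0.22 to -0.04), glycolysis (-0.27 to -0.02) and growth regulators (-0.21 to -0.08). In the same 18 settings the median of G2/M genes turned in 1, that of DExD/H-box helicases in 2 and that of oxidative phosphorylation genes in 2. The number of all tested probe sets with an unadjusted p under 0.05 for the ratio, 1177, became 412 without the polysomal RHA siRNA array of replicate 1, and 1931 without either cytoplasmic control array. For the difference the number, 1048, became 251 without the polysomal control array of replicate 1, 273 without the polysomal RHA siRNA array of replicate 1 and 1580 without the cytoplasmic RHA siRNA array of replicate 2. Leaving out a whole replicate number leaves no spread to test, so only values were taken. The cause of these shifts was not tested.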
